A study of Homo sapiens with 6 samples.

Results

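Tight junctions are the uppermost cell-cell contacts of epithelia, where they close the gap between neighbouring cells. The genes described here are 9 claudin and tight junction genes, picked by symbol from the 61541 genes of the counts table. They are the claudins CLDN1, CLDN3, CLDN4, CLDN7 and CLDN12, the other membrane proteins OCLN, MARVELD3 and F11R, and the scaffold TJP1. Each symbol matched 1 row of the table. MDA231-LN, in full MDA-MB-231-D3H2LN, was compared with its parental line MDA-MB-231, with 3 bulk RNA-seq libraries of total RNA for each line. MDA-MB-231 is an established human triple-negative breast cancer line, and MDA231-LN is known as a luciferase-carrying subline from a lymph node metastasis in mice. Both grew in the same high-glucose DMEM with 10% serum. Each kind of cell was represented by a single line, so lymph node origin cannot be told apart from any other difference between the lines. Nothing in the labels says whether replicate libraries were separate cultures, so each p-value reflects the scatter among libraries, possibly technical.

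Claudins are small 4-span membrane proteins whose outer loops set which ions and solutes pass between cells. Occludin and the MARVEL-domain proteins sit in the same strands, and F11R (JAM-A) is an immunoglobulin-like adhesion molecule beside them. TJP1, better known as ZO-1, holds them to the actin cytoskeleton from the inside. In breast cancer, low levels of CLDN3, CLDN4 and CLDN7 define the claudin-low subtype, to which MDA-MB-231 is usually assigned.

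The libraries held 17661542 to 18882719 counted fragments in MDA231-LN and 16461578 to 19171017 in the parental line. Levels are CPM (counts relative to the TMM-scaled library size), and ± is the SD over 3 libraries. Markers of a mesenchymal-like breast cancer line (VIM, CD44, EGFR, CAV1 and AXL) were all expressed and summed to 5249 to 5548 CPM in MDA231-LN and 3650 to 3840 CPM in the parental line. The 7 luminal markers summed to 944 to 996 CPM in MDA231-LN and 1056 to 1146 CPM in the parental line, nearly all of it KRT8 and KRT18, and ESR1 and PGR averaged under 1 CPM in both lines. Single markers did not all follow these sums. FOXA1 (14.3-fold) and ESR1 (5.28-fold) rose at low levels, and EGFR fell 1.93-fold (edgeR, Benjamini-Hochberg adjusted p under 0.05). KRT18 fell 1.26-fold at the same threshold, in the direction of the luminal sum. The leukocyte marker CD3E and the fibroblast marker PDGFRA had 0 counts in every library. Fragments touching 2 genes were not counted, and 67.6% of the PDGFRA exonic bases lie inside another annotated gene. The 5 leukocyte markers summed to 3.23 to 5.20 CPM in MDA231-LN and 2.83 to 3.99 CPM in the parental line. The 5 endothelial markers, of which ESAM is also a junction gene, summed to 20.6 to 21.7 CPM in MDA231-LN and 193 to 209 CPM in the parental line. Without ESAM they summed to 8.98 to 9.08 CPM in MDA231-LN and 8.04 to 12.1 CPM in the parental line. Most of that was PECAM1, with 8.58 ± 0.196 CPM in MDA231-LN and 9.51 ± 2.26 CPM in the parental line (edgeR, Benjamini-Hochberg adjusted p = 0.448). VWF averaged under 1 CPM in both lines and fell 3.13-fold (edgeR, Benjamini-Hochberg adjusted p = 0.0406). CDH5 had 3 counts in all in MDA231-LN and 0 in the parental line. The 5 fibroblast markers summed to 14.8 to 19.4 CPM in MDA231-LN and 9.18 to 14.6 CPM in the parental line, mostly from COL1A1. LUM rose 31.2-fold at under 1 CPM, with 47 counts in all in MDA231-LN and 1 in the parental line (edgeR, Benjamini-Hochberg adjusted p = 4.13e-05).

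Of the 9 genes, 7 had enough counts to be tested, and all 7 were lower in MDA231-LN at a Benjamini-Hochberg adjusted p under 0.05 (edgeR quasi-likelihood test over 14176 genes). They each had at least 15 counts in every library of both lines. Of all tested genes, 31.2% passed in this direction, 31.6% in the other and 62.8% in either. The sizes ran from a 4.28-fold lower CLDN7 to a 1.16-fold lower TJP1, with a median log2 fold change of -0.89 against 0.02 over all genes tested. At least 2-fold lower were 2 of the 7, CLDN7 and CLDN3, where 7.53% of all tested genes were. In 6 of the 7 every MDA231-LN library lay below every parental library, as in 32.8% of all tested genes, and TJP1 was the exception. Over all tested genes the lines were apart in 66.6%, in either direction, and apart and higher in MDA231-LN in 33.7%. Below, "fell" and "rose" mean lower or higher in MDA231-LN at this threshold. In bulk RNA, fewer cells with a transcript and less of it per cell cannot be told apart.

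**Figure D1:**
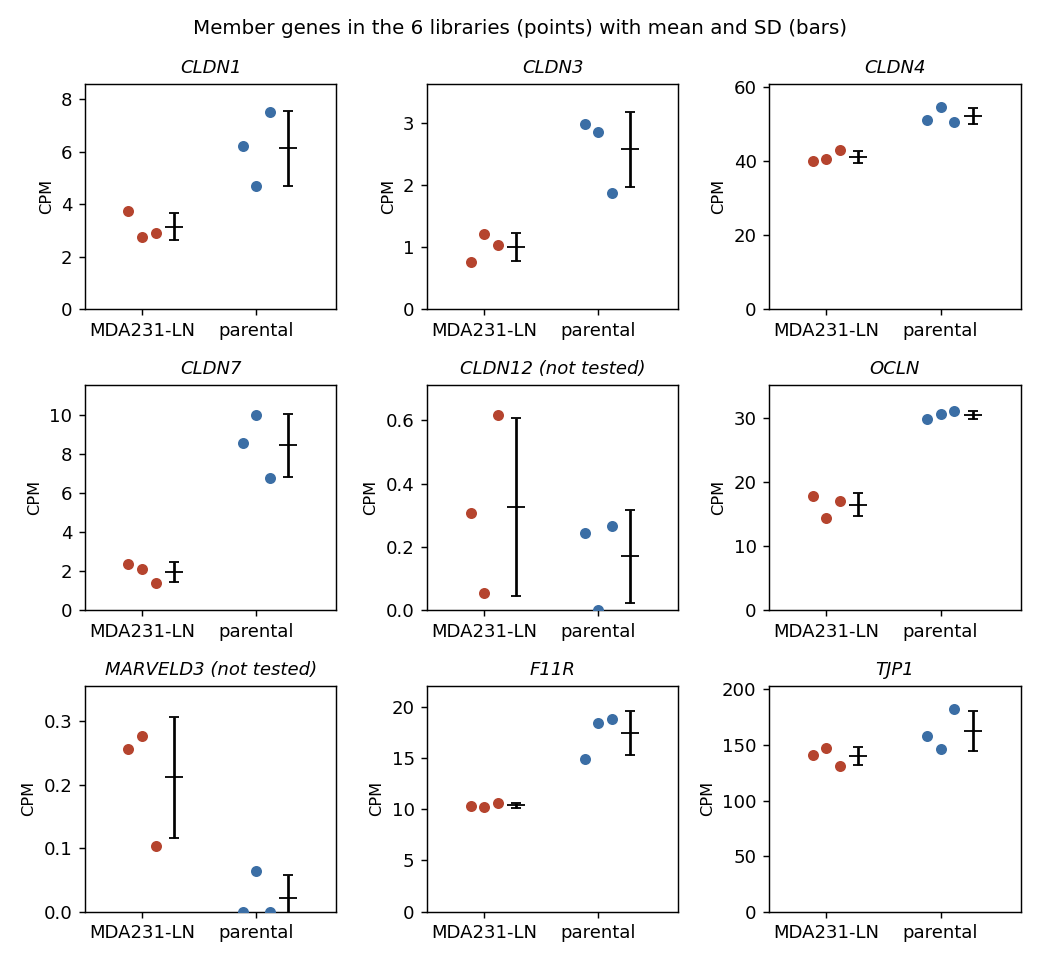
CPM of the 9 genes (y axis, from 0 in each panel) in the MDA231-LN libraries (red points) and the parental libraries (blue points), with mean and SD as black bars. The lines are apart, with MDA231-LN lower, in CLDN1, CLDN3, CLDN4, CLDN7, OCLN and F11R. They are apart with MDA231-LN higher in MARVELD3, and they overlap in TJP1 and CLDN12. CLDN12 and MARVELD3 stay under 1 CPM in all 6 libraries.

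The 4 tested claudins of the 9 genes fell by very different amounts, CLDN12 being untested. Promoters are shown for 3 of them, CLDN7 with the largest fall, CLDN3 with the next and CLDN4 with the smallest. Each window runs from 250 bases before to 50 bases after a RefSeq gene start on GRCh38.p14, read on the gene's strand. Capitals mark CAGGTG and its reverse complement CACCTG, the letters bound by the repressors of the Snail and ZEB families. The CLDN7 window is chr17:7262429-7262728 (minus strand), the CLDN3 window chr7:73770221-73770520 (minus strand) and the CLDN4 window chr7:73830746-73831045 (plus strand).
CLDN7: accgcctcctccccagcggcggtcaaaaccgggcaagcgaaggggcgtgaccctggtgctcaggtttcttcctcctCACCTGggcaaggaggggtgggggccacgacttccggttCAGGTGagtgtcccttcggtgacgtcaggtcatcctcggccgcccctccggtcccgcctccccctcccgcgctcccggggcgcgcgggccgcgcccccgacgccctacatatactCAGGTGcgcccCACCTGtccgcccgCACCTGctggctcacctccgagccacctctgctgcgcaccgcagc
CLDN3: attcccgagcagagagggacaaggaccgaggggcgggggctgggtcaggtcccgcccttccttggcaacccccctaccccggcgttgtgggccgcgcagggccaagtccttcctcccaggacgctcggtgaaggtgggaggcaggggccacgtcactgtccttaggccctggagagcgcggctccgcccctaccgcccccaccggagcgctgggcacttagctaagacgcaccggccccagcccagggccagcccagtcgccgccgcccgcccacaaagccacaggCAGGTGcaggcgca
CLDN4: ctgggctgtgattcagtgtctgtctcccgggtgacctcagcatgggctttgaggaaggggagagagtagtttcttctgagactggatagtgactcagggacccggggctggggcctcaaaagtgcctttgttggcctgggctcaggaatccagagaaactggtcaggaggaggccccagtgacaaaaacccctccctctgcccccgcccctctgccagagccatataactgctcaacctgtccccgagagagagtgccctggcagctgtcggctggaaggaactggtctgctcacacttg
The CLDN7 window held these letters 5 times, beginning 174, 135, 20 and 9 bases before the start and 5 bases after it. The CLDN3 window held them once, 36 bases after the start, and the CLDN4 window not at all. RefSeq gave 12 windows for 7 of the 9 genes, and 5 of the 12 held the letters. Besides CLDN7 and CLDN3 these were both OCLN windows and 1 of the 4 TJP1 windows. Of 35116 windows of the same length over all genes, 20.6% held them. The second CLDN7 window and those of CLDN1 and CLDN12, which are not shown, had none. The GC box letters GGGCGG, counted on both strands, occurred in 8 of the 12 windows and in 45.0% of all windows. The Grainyhead letters AACCGGTT occurred in 0 of the 12 and in 0.134% of all. A match describes the letters only.

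CLDN7 encodes claudin-7, which binds EpCAM at the sides of epithelial cells. It had 2.40, 2.10 and 1.39 CPM in the MDA231-LN libraries, against 8.58, 10.0 and 6.79 CPM in the parental libraries. Every MDA231-LN value was less than the lowest parental one. The mean was 1.96 ± 0.523 CPM in MDA231-LN and 8.46 ± 1.61 CPM in the parental line, a log2 fold change of -2.10 ± 0.24 (SE; edgeR quasi-likelihood, Benjamini-Hochberg adjusted p = 1.90e-08). The gene lies on chromosome 17 from 7259903 to 7263983 of GRCh38. Of its exonic bases 52.7% lie inside other annotated genes, among them ELP5, and fragments touching 2 genes were not counted, so its level is an underestimate in both lines. By the root mean square difference of centred log2 CPM over the 6 libraries, the tested genes with the pattern most like that of CLDN7 were OPRL1 (0.103), NOD1 (0.160) and EHD3 (0.175), on other chromosomes. The OPRL1 values are near the floor, with 7, 7 and 4 counts in MDA231-LN against 26, 33 and 27 in the parental line. Of the OPRL1 exonic bases 76.8% lie inside other genes.

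CLDN3 and CLDN4, receptors of the Clostridium perfringens enterotoxin, are neighbours on chromosome 7, from 73768997 to 73770270 and from 73799542 to 73832690, 29271 bases apart. CLDN3 had 0.767, 1.22 and 1.03 CPM in MDA231-LN, against 2.98, 2.85 and 1.87 CPM in the parental line. These values rest on 15, 22 and 20 counts in MDA231-LN and 49, 45 and 35 in the parental line. The lines did not overlap, and the log2 fold change was -1.35 ± 0.37 (SE; edgeR, Benjamini-Hochberg adjusted p = 0.00245). CLDN4 had the most fragments of the claudins, with 40.1, 40.6 and 43.0 CPM in MDA231-LN and 51.2, 54.7 and 50.6 CPM in the parental line. It fell by 0.34 ± 0.08 on the log2 scale, 1.26-fold (edgeR, Benjamini-Hochberg adjusted p = 0.000438), again without overlap. The log2 ratio of CLDN3 to CLDN4 averaged -5.38 ± 0.323 in MDA231-LN and -4.37 ± 0.342 in the parental line. The difference in log2 ratio, MDA231-LN minus parental, was -1.01 between values that did not overlap (two-sided exact permutation p = 0.1, the smallest that 3 against 3 libraries allow, and 0.1125 adjusted over 9 such measures).

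CLDN1, the claudin of the epidermal barrier, had 3.73, 2.77 and 2.93 CPM in MDA231-LN, against 6.21, 4.69 and 7.54 CPM in the parental line. The lines did not overlap, although the parental libraries spread widely. The mean was 3.14 ± 0.518 CPM in MDA231-LN and 6.15 ± 1.43 CPM in the parental line, 1.96-fold lower (log2 fold change -0.97 ± 0.23 SE; edgeR, Benjamini-Hochberg adjusted p = 0.000634). It lies on chromosome 3 from 190305707 to 190322446, and none of its exonic bases lie inside another gene. CLDN12, a claudin without the usual PDZ-binding end, was effectively not measured, since 98.8% of its exonic bases lie inside other annotated genes, among them CDK14 and GTPBP10. It had 19 counts over the 3 MDA231-LN libraries and 9 over the 3 parental ones, a ratio of 1.88 (95% exact binomial interval 0.812 to 4.72, counting error only).

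The 4 tested claudins of the 9 genes together had 47.0, 46.7 and 48.3 CPM in MDA231-LN, against 69.0, 72.3 and 66.8 CPM in the parental line. The share of the sum from CLDN4 was 87.1 ± 1.83% in MDA231-LN and 75.2 ± 0.874% in the parental line. CLDN7 supplied 4.16 ± 1.16% in MDA231-LN and 12.2 ± 1.86% in the parental line. CLDN3 supplied 2.12 ± 0.486% in MDA231-LN and 3.69 ± 0.794% in the parental line. The CLDN1 share was 6.64 ± 1.13% in MDA231-LN and 8.92 ± 2.40% in the parental line, and its values overlapped (two-sided exact permutation p = 0.2). For the sum and the other 3 shares the lines did not overlap, and the p was the smallest possible, 0.1 (0.1125 adjusted over the 9 measures). CPM is not corrected for length, so these shares describe fragments, not transcripts. They also leave out the other 3 claudin genes that could be tested, CLDN15, CLDN18 and CLDN23, which are given below. CLDN15 had 20.2 ± 1.21 CPM in MDA231-LN and 18.2 ± 3.65 CPM in the parental line, more than CLDN1, CLDN3 or CLDN7. The shares therefore hold within these 4 genes only, not for all claudins.

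**Figure D2:**
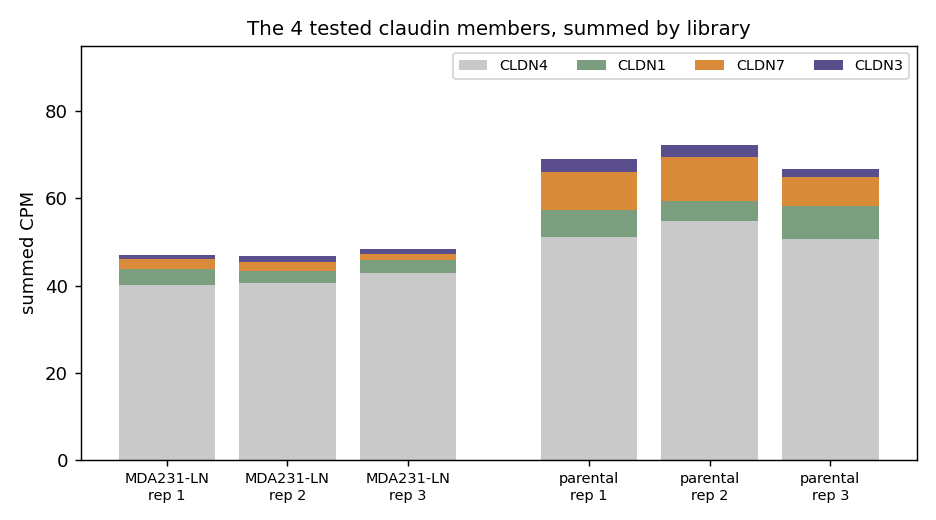
Summed CPM of CLDN4, CLDN1, CLDN7 and CLDN3 (stacked from the bottom in that order, y axis from 0) in each of the 6 libraries. The MDA231-LN bars end between 46.7 and 48.3 CPM and the parental bars between 66.8 and 72.3 CPM, and the CLDN7 segment is thinner in MDA231-LN.

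OCLN encodes occludin, the first tight junction membrane protein to be described, and fell with little scatter. It had 17.9, 14.4 and 17.1 CPM in MDA231-LN, against 29.9, 30.6 and 31.1 CPM in the parental line. All MDA231-LN values were below the parental ones, with a log2 fold change of -0.89 ± 0.10 (SE; edgeR, Benjamini-Hochberg adjusted p = 3.96e-08), 1.85-fold lower. It lies on chromosome 5 from 69492292 to 69558104. Part of the gene has near-identical copies in the same region, and fragments that align to several places were not counted, so its level is uncertain.

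F11R, which encodes JAM-A, had 10.3, 10.2 and 10.6 CPM in MDA231-LN, against 14.9, 18.4 and 18.8 CPM in the parental line. The MDA231-LN libraries were close together, and none reached the parental range. The log2 fold change was -0.75 ± 0.13 (SE; edgeR, Benjamini-Hochberg adjusted p = 1.75e-05), 1.68-fold lower. F11R lies on chromosome 1 from 160995211 to 161021343, with 45.7% of its exonic bases inside another annotated gene.

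MARVELD3, a MARVEL-domain relative of occludin, was near the limit of detection, with 5, 5 and 2 counts in MDA231-LN against 0, 1 and 0 in the parental line. On these few counts every MDA231-LN library lay above every parental one in CPM. The ratio of counts over library sizes was 10.7, with a 95% exact binomial interval of 1.58 to 457 (counting error only). It did not enter the main test. With no filter on low counts the fitted log2 fold change was 3.02 ± 1.75 (SE) and did not pass (edgeR, Benjamini-Hochberg adjusted p = 0.174). Of its exonic bases 58.3% lie inside another gene.

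TJP1, the ZO-1 scaffold, differed least of the 7. It had 141, 148 and 131 CPM in MDA231-LN, against 158, 147 and 182 CPM in the parental line. The highest MDA231-LN library lay just above the lowest parental one. The log2 fold change was -0.22 ± 0.07 (SE; edgeR, Benjamini-Hochberg adjusted p = 0.00812). The call was lost with upper-quartile scaling (-0.10 ± 0.07, adjusted p = 0.205), without parental replicate 3 (-0.13 ± 0.06, adjusted p = 0.0668) and without MDA231-LN replicate 3 (-0.17 ± 0.08, adjusted p = 0.0699). The range of the adjusted p over 13 alternatives was 0.000714 to 0.205.

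Levels of different genes were compared as CPM per kilobase of the counted gene body, introns included. In MDA231-LN the order was CLDN4 at 1.24 ± 0.0464 CPM per kilobase, CLDN3 at 0.788 ± 0.178, TJP1 at 0.519 ± 0.0303, CLDN7 at 0.481 ± 0.128, F11R at 0.397 ± 0.00881, OCLN at 0.25 ± 0.0273 and CLDN1 at 0.188 ± 0.031. The ranges of TJP1 and CLDN7, of CLDN7 and F11R and of OCLN and CLDN1 overlapped. In the parental line CLDN7 came first at 2.07 ± 0.395 CPM per kilobase, followed by CLDN3 at 2.02 ± 0.476, CLDN4 at 1.57 ± 0.0666, F11R at 0.665 ± 0.0823, TJP1 at 0.603 ± 0.0667, OCLN at 0.464 ± 0.00939 and CLDN1 at 0.367 ± 0.0853. There CLDN7 and CLDN3, CLDN3 and CLDN4, and F11R and TJP1 overlapped. CLDN12 and MARVELD3 came last in both lines, at most at 0.0133 CPM per kilobase. The order depends on the length used, because TJP1 is mostly intron while CLDN3 has none. Per kilobase of exon, TJP1 came first, with 12.4 ± 0.726 CPM in MDA231-LN and 14.4 ± 1.60 CPM in the parental line. CLDN4 was second, with 8.76 ± 0.327 CPM per kilobase of exon in MDA231-LN and 11.1 ± 0.470 in the parental line, and OCLN and then F11R followed in both lines. On that scale CLDN7 overlapped F11R in the parental line, whereas in MDA231-LN it overlapped CLDN1 and CLDN3.

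Some of these genes lie in stretches of the genome whose tested genes were lower in MDA231-LN as a whole. Within 5 Mb on either side of F11R, 58 of 79 tested genes fell and the median log2 fold change was -0.80, beside -0.75 for F11R itself. Around OCLN 37 of 48 fell, with a median of -0.64 beside -0.89 for OCLN. Around CLDN1 25 of 41 fell, with a median of -0.46 beside -0.97 for CLDN1. Around CLDN7 the median was 0.06, with 25 of 120 genes falling and 34 rising, and around CLDN3 and CLDN4 it was -0.10. Around TJP1 it was 0.25, with 2 of 32 falling and 13 rising. Whether these stretches have a part in the values of the 7 genes was not tested.

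**Figure D3:**
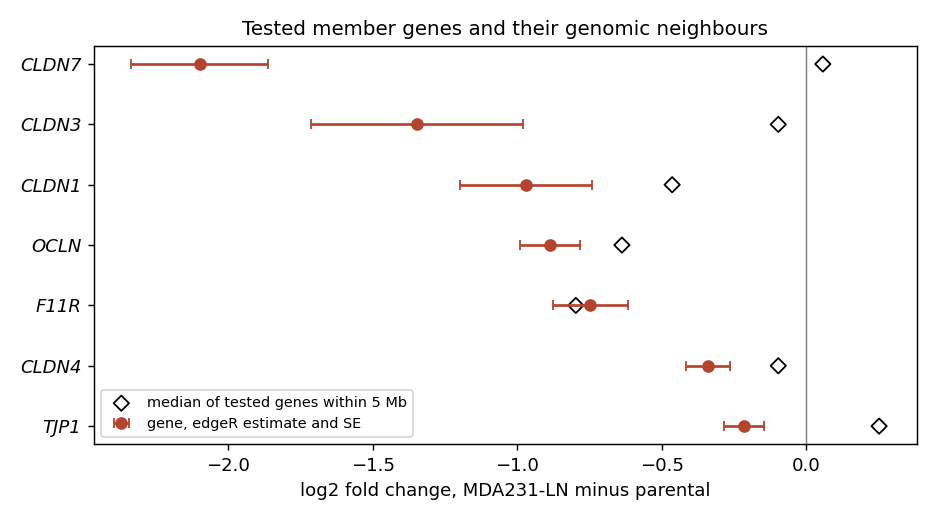
Log2 fold change of the 7 tested genes, MDA231-LN minus parental (x axis; red points with SE from edgeR), beside the median log2 fold change of the tested genes within 5 Mb on either side (open diamonds). The diamonds of F11R and OCLN lie at -0.80 and -0.64, and that of CLDN7 lies at 0.06, far from its gene at -2.10.

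Other tight junction genes went both ways. Of 60 further tight junction genes 35 could be tested, of which 15 fell and 12 rose (edgeR quasi-likelihood, adjusted p under 0.05 over all genes). Together these are 77.1% of the 35, where 62.8% of all tested genes passed, and the median log2 fold change was -0.08 against 0.02. At least 2-fold lower were 7 and at least 2-fold higher 4, where 7.53% and 13% of all tested genes were. Of the 25 that could not be tested, 6 lie almost wholly within other genes, with more than 90% of exonic bases shared, and were not measured. Among them were CLDN2, CLDN11, CLDN14, CLDN20 and RAB13. The other 19 averaged at most 0.556 CPM in MDA231-LN and 0.327 CPM in the parental line.

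**Figure D4:**
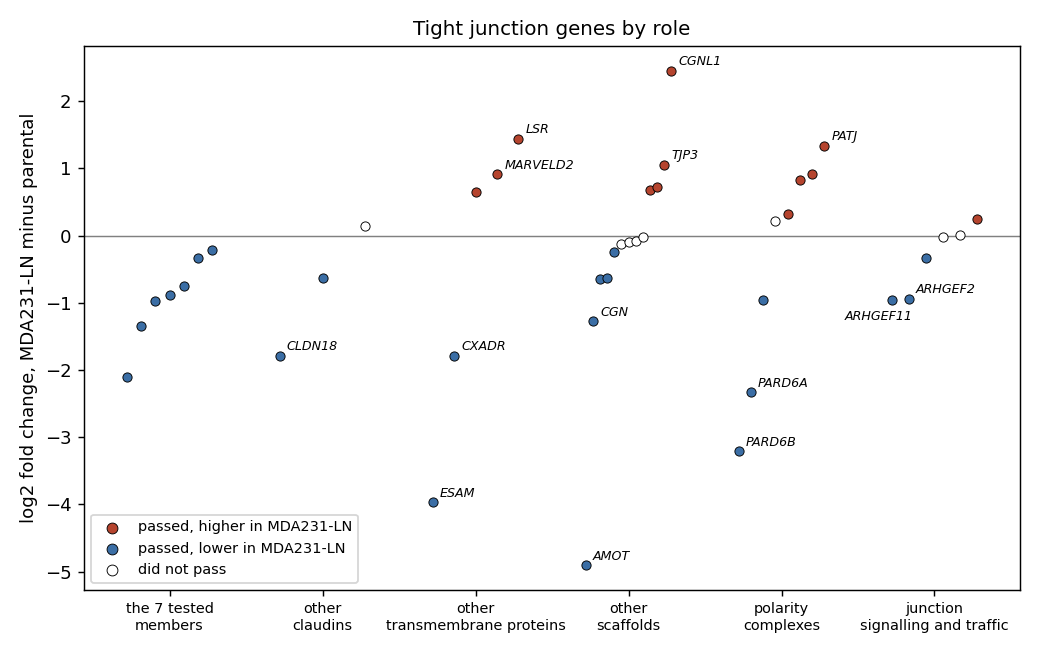
Log2 fold change, MDA231-LN minus parental (y axis), of each tested tight junction gene, one point per gene, grouped by role along the x axis. Red points passed and were higher in MDA231-LN, blue points passed and were lower, and white points did not pass. The 7 members at the left all lie below 0, while each other group holds points on both sides of 0.

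Only 3 of the 19 other claudin genes could be tested. CLDN18, the gastric and lung claudin, fell 3.45-fold from a low level (0.26 ± 0.0967 CPM in MDA231-LN and 0.922 ± 0.0603 CPM in the parental line; adjusted p = 0.00685 by edgeR). CLDN23 fell 1.55-fold, with 4.09 ± 0.303 CPM in MDA231-LN and 6.34 ± 0.566 CPM in the parental line. CLDN15 had 20.2 ± 1.21 CPM in MDA231-LN and 18.2 ± 3.65 CPM in the parental line and did not pass.

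The other membrane proteins of the junction moved in both directions, 3 of the 5 tested rising and 2 falling. ESAM, a JAM relative known from endothelium and platelets, fell 15.6-fold, with 12.1, 12.6 and 11.7 CPM in MDA231-LN against 186, 201 and 181 CPM in the parental line (edgeR, Benjamini-Hochberg adjusted p = 8.84e-24). The groups were far apart. Of the endothelial markers given above, the cadherin gene CDH5 was at or near 0 in both lines, PECAM1 did not pass and VWF fell. CXADR, the coxsackievirus and adenovirus receptor, fell 3.45-fold, with 4.37 ± 0.925 CPM in MDA231-LN and 15.1 ± 0.967 CPM in the parental line. LSR, or angulin-1, which marks contacts where 3 cells meet, rose 2.72-fold, with 66.4, 66.2 and 65.7 CPM in MDA231-LN against 25.1, 24.6 and 23.3 CPM in the parental line. The angulin gene ILDR2 rose 1.56-fold (24.5 ± 1.79 CPM in MDA231-LN and 15.7 ± 0.423 CPM in the parental line).

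MARVELD2, or tricellulin, another marker of 3-cell contacts, is an occludin relative near OCLN on chromosome 5 (69415065 to 69444330). It lies 47961 bases from OCLN with 2 annotated genes between them, and was singled out after its values were seen. It had 7.98, 6.64 and 6.52 CPM in MDA231-LN, against 2.44, 4.88 and 3.90 CPM in the parental line. It rose 1.89-fold (log2 fold change 0.92 ± 0.22 SE; edgeR, Benjamini-Hochberg adjusted p = 0.000871) within the stretch where most tested genes fell. The log2 ratio of OCLN to MARVELD2 averaged 1.23 ± 0.148 in MDA231-LN and 3.09 ± 0.491 in the parental line and did not overlap (two-sided exact permutation p = 0.1, the smallest possible).

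Among 13 tested scaffolds other than TJP1, 4 rose and 5 fell. The paralogues cingulin and paracingulin, which sit on the inner face of the junction, went opposite ways. CGN fell 2.41-fold, with 7.53 ± 0.912 CPM in MDA231-LN and 18.2 ± 0.757 CPM in the parental line (edgeR, adjusted p = 6.87e-09). CGNL1 rose 5.48-fold, with 7.11, 7.86 and 8.11 CPM in MDA231-LN against 0.731, 1.14 and 2.25 CPM in the parental line (adjusted p = 1.82e-08). Their log2 ratio was -0.04 ± 0.143 in MDA231-LN and 3.88 ± 0.768 in the parental line (two-sided exact permutation p = 0.1, the smallest possible; the pair was chosen after its values were seen). AMOT, angiomotin, a binder of the Hippo effector YAP, fell 29.9-fold, with 0.213 ± 0.145 CPM in MDA231-LN and 6.50 ± 0.404 CPM in the parental line. The MDA231-LN level rests on 5, 6 and 1 counts, against 114, 101 and 115 in the parental line, so the size of the fall is uncertain. The log2 fold change of AMOT ranged from -5.34 to -4.44 over the 6 fits that each left out 1 library. TJP3, or ZO-3, rose 2.08-fold at a low level (2.15 ± 0.316 CPM in MDA231-LN and 1.02 ± 0.392 CPM in the parental line). Its call was lost without parental replicate 1 (edgeR, adjusted p = 0.0809) and without MDA231-LN replicate 3 (0.0859), within a range of 0.00692 to 0.0859 over 13 alternatives.

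Of 8 tested genes of the polarity complexes that place the junction, 4 rose and 3 fell. Both Par6 genes that could be tested fell. The Par6 gene PARD6G was too low to be tested, with 17, 7 and 8 counts in MDA231-LN against 0, 5 and 1 in the parental line. In CPM every MDA231-LN library lay above every parental one for PARD6G. Of the PARD6G exonic bases 86.5% lie inside other genes. PARD6B fell 9.23-fold, with 6.44, 4.10 and 6.36 CPM in MDA231-LN against 47.6, 52.4 and 57.0 CPM in the parental line (edgeR, adjusted p = 2.25e-17). PARD6A fell 5.01-fold, with 1.72 ± 0.0672 CPM in MDA231-LN and 8.63 ± 0.573 CPM in the parental line. PATJ, a partner of the Crumbs complex, rose 2.52-fold, with 17.4 ± 1.28 CPM in MDA231-LN and 6.84 ± 1.63 CPM in the parental line. Among 6 tested signalling and trafficking genes, 3 fell and 1 rose. The guanine nucleotide exchange factor genes ARHGEF2 (1.92-fold) and ARHGEF11 (1.94-fold) had the smallest adjusted p of these, both lower. Both lie near F11R on chromosome 1, ARHGEF11 within 5 Mb and ARHGEF2 within 10 Mb. The median log2 fold changes of those windows were -0.80 and -0.83, beside -0.95 for ARHGEF11 and -0.94 for ARHGEF2. Whether the stretch has a part in their values was not tested.

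The partners and regulators of claudins were also mixed, with 5 rising and 5 falling of 14 tested, 71.4% in all where 62.8% of all tested genes passed. The median log2 fold change was 0.11, against 0.02 over all tested genes. EPCAM, the partner of claudin-7, was at 15.1 ± 2.23 CPM in MDA231-LN and 13.0 ± 1.95 CPM in the parental line and did not pass (edgeR, adjusted p = 0.178). SPINT1, an inhibitor of the matriptase that cleaves EpCAM, rose 6.54-fold, with 10.1 ± 0.662 CPM in MDA231-LN and 1.55 ± 0.416 CPM in the parental line. Of 5 tested transcription factors listed as favouring epithelial junction genes, 2 rose and 2 fell. OVOL2 rose 8.83-fold, with 29, 21 and 12 counts in MDA231-LN against 2, 0 and 4 counts in the parental line. Its log2 fold change was 3.14, and 3.98 without parental replicate 3. The range was 2.62 to 3.98 over the 6 fits that each left out 1 library. More abundant factors of this list changed less. EHF fell 1.98-fold, with 34.8 ± 1.93 CPM in MDA231-LN and 68.8 ± 3.77 CPM in the parental line. KLF5 fell 1.40-fold (35.0 ± 4.24 CPM in MDA231-LN and 48.7 ± 4.27 CPM in the parental line), and KLF4 rose 1.21-fold.

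Of the transcription factors that repress epithelial junction genes, 4 of 6 could be tested, and 2 rose, 1 fell and 1 did not pass. SNAI1 rose 10.9-fold, with 7.52, 9.52 and 8.26 CPM in MDA231-LN against 1.03, 0.823 and 0.481 CPM in the parental line (edgeR, Benjamini-Hochberg adjusted p = 2.43e-11). ZEB2 also rose, 1.83-fold, with 19.3 ± 0.599 CPM in MDA231-LN and 10.5 ± 2.08 CPM in the parental line. The more abundant ZEB1 fell 1.52-fold, with 82.8 ± 4.27 CPM in MDA231-LN and 126 ± 4.83 CPM in the parental line. SNAI2 was at 33.7 ± 3.62 CPM in MDA231-LN and 33.6 ± 0.368 CPM in the parental line and did not pass. CLDN15, CLDN23, ILDR2, PARD6G, EPCAM, EHF, KLF4, KLF5, ZEB1, ZEB2 and SNAI2 were named after their values were seen.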

How the data were processed

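The authors deposited raw counts per gene. They come, per the file headers, from featureCounts 2.0.1 and Ensembl release 105 of GRCh38. Per the file headers, fragments were counted over whole gene bodies, introns included, without regard to strand, and those touching more than 1 gene or aligning to several places were left out. Per the submitters' processing notes the aligner was STAR, whose version is not given in the sources used here.

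Counts were tested with edgeR 4.0.16 in R 4.3.3 (quasi-likelihood test, TMM, filterByExpr, 14176 genes kept), as MDA231-LN minus parental. A gene passed at a Benjamini-Hochberg adjusted p under 0.05. CPM used all counted fragments times the TMM factors. Symbols were found for 61369 of 61541 genes (99.7%), exons came from GENCODE 29, and promoter windows from RefSeq (GRCh38.p14). Libraries of a line differed beyond sampling noise (chi-square per degree of freedom 3.73 to 8.47). The fit was tested on simulated data.

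The genes and lists were chosen with earlier results of these data known. Named were the 9 members and, per role, up to 4 genes at least 2-fold changed that passed with the smallest adjusted p (where none, up to 2 of any size). Other names are marked as chosen later. Some genes of the lists are counted but not reported here by name. The alternatives covered upper-quartile and RLE scaling, dropping the filter, 1 CPM in 3 libraries, a replicate block, DESeq2 1.42.0, limma-voom (limma 3.58.1), leaving out each library, and other lengths and windows. Python 3.11.15 was used for the rest.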

Additional observations from a re-analysis of the deposited data

How the results depend on the processing

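CLDN1, CLDN3, CLDN4, CLDN7, OCLN and F11R kept their direction and passed under all 13 alternatives, with adjusted p of at most 0.0162 (CLDN3). TJP1 kept its direction but not its call: its log2 fold change was -0.10 with upper-quartile scaling and -0.29 to -0.13 when 1 library was left out, and the cause was not tested. The count of members lower in MDA231-LN was 6 to 7, and 0 were higher. Among the other tight junction genes 14 to 16 fell and 10 to 14 rose, and among claudin partners and regulators 5 to 6 fell and 4 to 7 rose. The median log2 change over all tested genes was 0.13 with upper-quartile scaling, against 0.02 with TMM, with 5415 genes higher and 3603 lower against 4482 and 4422. TJP3 lost its call without 1 library, as given above.

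Same-numbered libraries did not deviate together (correlations -0.0526 to 0.00241), so the numbers were not taken as pairs. With the replicate number as a block 7 members were lower, as without it, and TJP1 had a log2 fold change of -0.21.

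The order of levels depended on the length used. Against the order per kilobase of gene body, 9 members in MDA231-LN and 7 in the parental line changed place per kilobase of exon. Per kilobase of exon outside other genes, an alternative chosen after seeing the data, 8 changed place in each line, among them CLDN12, which has 0.081 kilobases of such exon. Leaving out a library moved 0 to 2 in MDA231-LN and 0 to 4 in the parental line. With 10 Mb on either side the neighbourhood medians were -0.12 for CLDN3 and CLDN4 and -0.83 for F11R. CLDN12 and MARVELD3 were too shallow for a call on direction, and neither passed with no filter on low counts. The lines overlapped in CLDN12. In MARVELD3 they were apart, with MDA231-LN higher, on at most 5 counts per library.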
